A study of Mus musculus with 96 samples.

Results

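BAF chromatin remodelling complexes were followed through 10 of their subunit genes in single mouse embryonic stem (ES) cells. The genes were Smarca4, Smarca2, Smarcc1, Smarcc2, Smarcb1, Smarcd1, Smarce1, Arid1a, Arid1b and Arid2, taken by symbol, and all 10 had a row among the 23284 gene rows of the count table. Messenger RNA was read from 48 cells of J1, an established mouse ES line, grown without feeder cells in serum with leukaemia inhibitory factor (LIF). Every library is from that line and that medium, so the cells form 1 group, serum ES cells, and there is no second genotype, strain, treatment or time. Cells were captured and their cDNA amplified on a microfluidic chip, only cDNAs that amplified went on to libraries, and each library was sequenced on 2 lanes, per the labels' protocols. No label assigns a cell to a culture of its own, so cells are not replicates of a condition and no p-value below extends beyond them.

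BAF (SWI/SNF) complexes use the energy of ATP to slide or evict nucleosomes and so open or close DNA to transcription factors. Complexes of the types with an ARID subunit hold 1 ATPase, BRG1 (Smarca4) or BRM (Smarca2), a pair of SMARCC scaffold proteins, a SMARCD subunit and further core subunits. Their ARID subunit sets the type: ARID1A or ARID1B in BAF, ARID2 in the related PBAF. The ES-cell form, esBAF, is known for BRG1, BAF155 (Smarcc1), BAF60A (Smarcd1) and ARID1A, while BRM and BAF170 (Smarcc2) are typical of differentiated cells.

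Summed over lanes, a cell had from 4408953 to 9767245 reads in genes (median 7054853) on 8039 to 10291 genes. Lanes differed by no more than counting noise: of 14712 genes tested between lanes, 0 passed the adjusted threshold of 0.05 (chi-square test on counts, Benjamini-Hochberg adjusted) and 698 (4.74%) had an unadjusted p under it. Among the 10 genes the lowest such p was 0.00782, for Arid1b (adjusted p = 0.983). The cells fell into 2 clusters, 13 primitive endoderm-like and 35 naive pluripotency-like cells, and none of the 10 BAF genes was among the 500 genes used for clustering. Summed over its 10 genes, the primitive endoderm marker list stood at 2422 to 13736 CPM (median 6341) in primitive endoderm-like cells, against 2.38 to 132 CPM (median 17.5) in naive pluripotency-like cells. CPM is a gene's count relative to the scaled library total. The naive marker list stood at 181 to 1618 CPM (median 854) in primitive endoderm-like cells and at 419 to 5771 CPM (median 3070) in naive pluripotency-like cells. Of its 10 genes, 8 were lower and 1 (Tbx3) was higher in primitive endoderm-like cells by at least 1 log2 unit. In mean log2(CPM + 1), Tbx3 was higher by 1.18 and Klf4 by 0.45. Tbx3 was detected in 13 of 13 primitive endoderm-like and 21 of 35 naive pluripotency-like cells. The primed epiblast list summed to 46.8 to 1041 CPM (median 153) in primitive endoderm-like cells. In naive pluripotency-like cells that list summed to 7.23 to 1923 CPM (median 272). Of its 4 genes Dnmt3b was detected in 48 cells, Otx2 in 36, Pou3f1 in 9 and Fgf5 in 3. Fibroblast markers summed to at most 7.15 CPM in primitive endoderm-like cells and 35.9 CPM in naive pluripotency-like cells, with Col3a1 at 0 reads in every cell. The neural list summed to 0.92 to 363 CPM (median 92.2) in primitive endoderm-like cells and to 0.211 to 372 CPM (median 93.3) in naive pluripotency-like cells. Of its 5 genes Tubb3 was detected in 42 cells, Nes in 12, Pax6 in 4, Sox1 in 1 and Neurog2 in none. Primitive endoderm is an extraembryonic tissue of the blastocyst that goes on to form yolk sac endoderm.

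In the annotation the genes lie apart: Smarca4 and Smarcc1 on chromosome 9, Smarcc2 and Smarcb1 on 10, Smarcd1 and Arid2 on 15, Arid1a on 4, Smarce1 on 11, Arid1b on 17 and Smarca2 on 19. A read from a stretch that is identical between paralogs could be assigned wrongly. The longest run of identical bases was searched between the transcripts of each pair (GENCODE M21, GRCm38), and the runs of the ATPase and scaffold pairs are shown because their read ratios carry the results below. For Smarca4 and Smarca2 it had 20 bases and for Smarcc1 and Smarcc2 26 bases, both inside the coding sequence of both genes. No stretch of 50 bases was shared in either pair, nor between Arid1a and Arid1b, whose longest run had 29 bases. Shorter shared stretches were not counted.
Smarca4 and Smarca2: atgttggccaggggccagcc
Smarcc1 and Smarcc2: caaatgaagaaactagagatcaaact

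The 10 genes split into a group read in every cell and a group read in some cells. A gene was called detected with at least 5 reads after each cell was thinned to 4408953 reads. Smarca4, Smarcc1, Smarcb1, Arid1a and Arid2 were detected in 48 of 48 cells, as were 15.3% of the 11746 genes tested (those averaging 10 or more reads a cell). Smarce1 was detected in 46 cells, Smarcd1 in 44, Arid1b in 38, Smarcc2 in 21 and Smarca2 in 16. For Smarca2 that is 33.3% of cells (95% exact Clopper-Pearson interval 20.4 to 48.4%) and for Smarcc2 43.8% (29.5 to 58.8%). These intervals come from the number of cells and treat cells as independent draws, which the labels do not show. Without thinning, detection was 24 cells for Smarcc2, 41 for Arid1b and 45 for Smarcd1, and it was unchanged for the other 7 genes. A cell held between 6 and 10 of the genes (median 8), and 3 cells held all 10.

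Per kilobase of transcript, the order of the 10 genes by median CPM over the 48 cells began with Smarcb1 at 102 CPM per kb (quartiles 59.6 and 148). Smarcb1 encodes SNF5, a core subunit, and its lower quartile lay above the upper quartile of the next gene, Smarce1, at 41.6 CPM per kb (26.2 and 54.7). Smarce1 encodes BAF57, a core subunit with an HMG DNA-binding domain. Smarcc1 followed at 32.8 CPM per kb (21.8 and 44.5), Arid1a at 27.9 (20.4 and 36.3), Smarca4 at 18.0 (8.86 and 29.8), Arid2 at 6.37 (2.22 and 10.6) and Smarcd1 at 5.29 (1.70 and 10.8). Arid1b stood at 1.41 CPM per kb (0.292 and 2.31), Smarcc2 at 0.132 (0 and 1.11) and Smarca2 at 0 (0 and 1.62). Apart from the first step, the quartile ranges of every pair of neighbours overlapped. With the length of all annotated exons in place of 1 transcript, Smarcc1 came first at 23.9 CPM per kb and Smarcb1 second at 21.4, with overlapping quartiles. By these medians Smarca4, Smarcc1 and Arid1a each stood above their paralogs per kilobase, and the plot of levels by cell shows the spread.

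**Figure D1:**
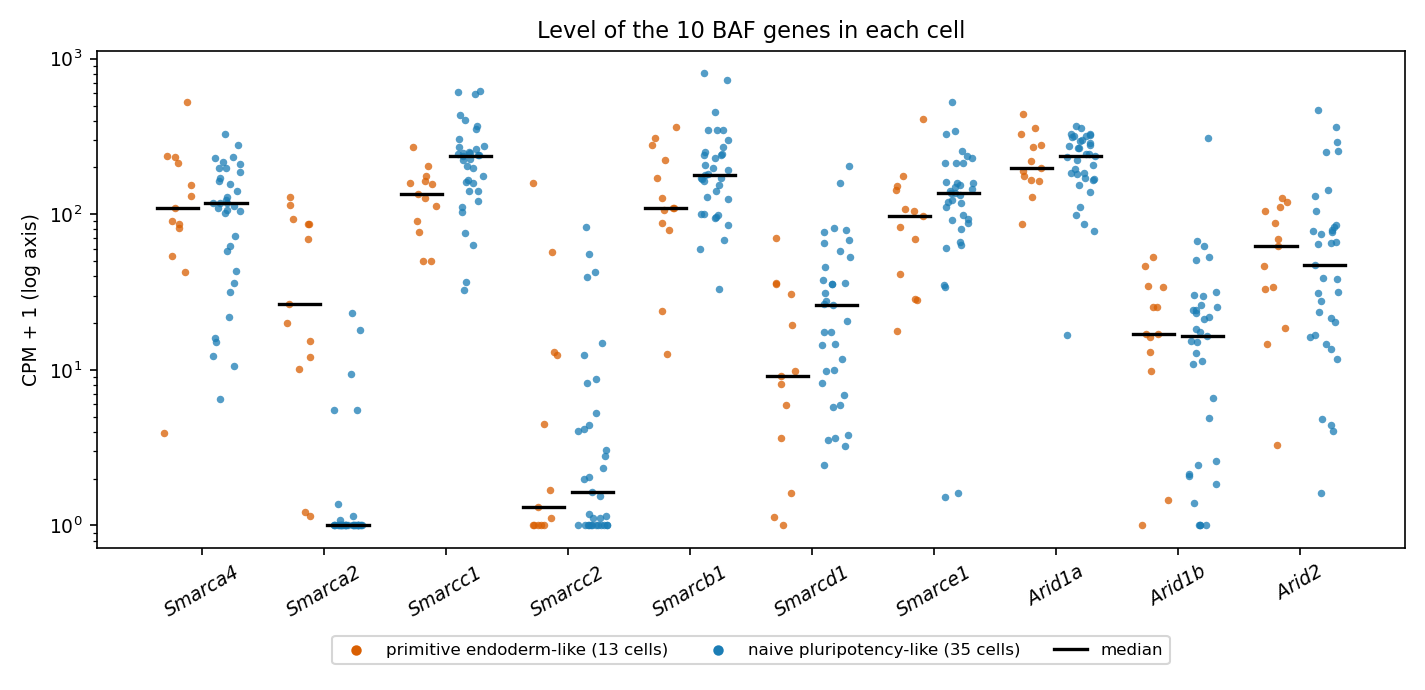
Level of the 10 BAF genes in each cell, as CPM + 1 on a log axis that is not corrected for gene length, with 13 primitive endoderm-like cells left and 35 naive pluripotency-like cells right for each gene; bars are medians. Smarca2 has a median of 25.7 CPM in primitive endoderm-like cells against 0 CPM in naive pluripotency-like cells, while Arid1a and Smarca4 overlap over most of their range.

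The ATPase genes gave the widest contrast between the clusters. Smarca2, encoding BRM, had 0.154 CPM in the lowest, 25.7 CPM in the median and 129 CPM in the highest of the 13 primitive endoderm-like cells, against 0, 0 and 22.2 CPM in the 35 naive pluripotency-like cells. It was detected in 11 of 13 primitive endoderm-like cells (84.6%, interval 54.6 to 98.1%) and in 5 of 35 naive pluripotency-like cells (14.3%, 4.81 to 30.3%). In 7 primitive endoderm-like cells the level lay above the highest naive pluripotency-like cell, and 27 naive pluripotency-like cells had 0 Smarca2 reads. The mean log2(CPM + 1) of Smarca2 was 4.6 in primitive endoderm-like cells (SD 2.32) and 0.504 in naive pluripotency-like cells (SD 1.24), a difference of 4.10. On that scale 0.894% of the 11746 genes tested had a larger difference in favour of primitive endoderm-like cells. The clusters were made from these same cells, so differences between them are descriptions with no test. With cells thinned to the same number of reads the difference was 4.06, and with a pseudocount of 10 CPM in place of 1 it was 1.93. Primitive endoderm-like cells had a median of 8076614 reads and naive pluripotency-like cells 6419369.

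Smarca4, encoding BRG1, did not follow Smarca2. It had 2.93, 108 and 527 CPM (lowest, median, highest) in primitive endoderm-like cells and 5.47, 117 and 326 CPM in naive pluripotency-like cells. These ranges overlapped almost wholly, and the difference in mean log2(CPM + 1), primitive endoderm-like minus naive pluripotency-like, was 0.23. It was 0.0229 without cell 25 and 0.61 without cell 33. Both extremes over all cells were primitive endoderm-like, with 19 Smarca4 reads in cell 33 and 3792 in cell 25.

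The read ratio of the ATPase pair separated most cells of the clusters. Over the 48 cells the log2 ratio of Smarca4 to Smarca2 reads, with 1 read added to each, had a median of 7.92 (SD 3.58) and ran from -1.12 to 11.1. Smarca2 had 0 reads in 27 of these cells, all naive pluripotency-like, so the ratio there follows the Smarca4 count and the added read and is a lower bound; the median was 8.92 with 0.5 reads added and 5.62 with 5 reads. The SD of the ratio's difference between the lanes of a cell was 0.429; lanes read the same amplified library, so this leaves out noise of capture and amplification. The ratio's median was 2.03 (-1.12 to 9.44) in primitive endoderm-like cells and 9.32 (3.14 to 11.1) in naive pluripotency-like cells. The second median rests on cells at 0 Smarca2 reads. Of the 13 primitive endoderm-like cells, 11 lay below the lowest naive pluripotency-like cell, cell 11. Among them, cells 40 (3.11), 2 (3.06) and 32 (2.93) lay closer to cell 11 than the lane SD. Smarca4 made up 75.8% of the pooled reads of the pair in primitive endoderm-like cells and 98.6% in naive pluripotency-like cells. Smarca4 exceeded Smarca2 in 46 of 48 cells, in reads and also per kilobase. The other 2 were primitive endoderm-like: cell 13 with 422 Smarca4 and 916 Smarca2 reads, and cell 41 with 688 and 710. In cell 41 the Smarca4 share was 49.2% (exact interval 46.6 to 51.9%). Reads carry no molecular identifiers and are not independent molecules, so that interval covers counting error only.

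**Figure D2:**
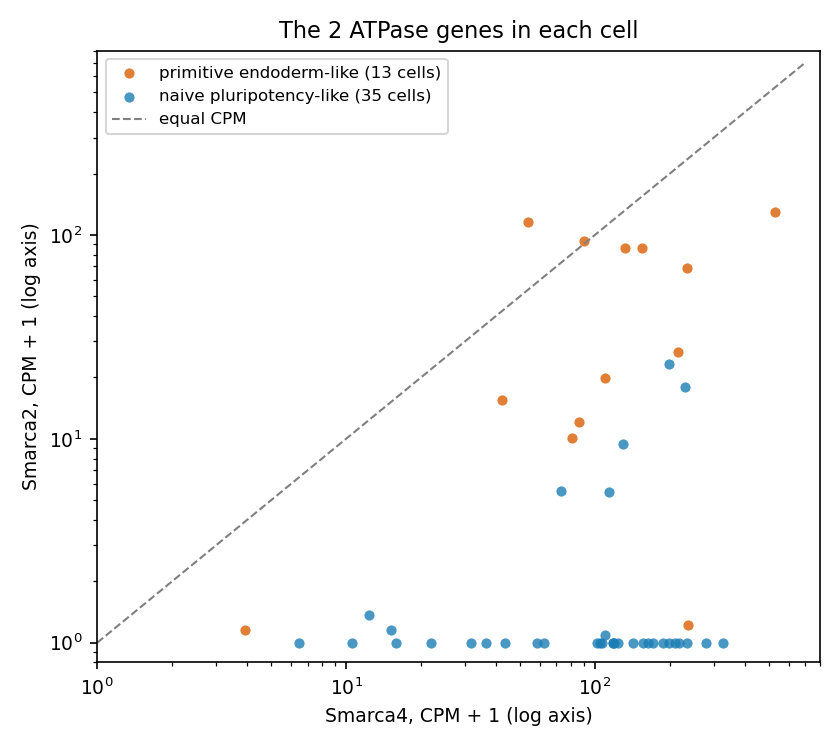
Smarca4 (x axis) against Smarca2 (y axis) in each cell, both as CPM + 1 on log axes; the dashed line marks equal CPM. Naive pluripotency-like cells lie along the bottom apart from 5 cells, and 11 of 13 primitive endoderm-like cells stand above 9 CPM of Smarca2.

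Values of the lineage markers were set beside the Smarca2 level. In 5 of the 13 primitive endoderm-like cells Pou5f1 (Oct4), a core pluripotency factor, was not detected, and Smarca2 stood there at 11.1 to 129 CPM (median 67.9). In the 8 primitive endoderm-like cells with Pou5f1 detected, Smarca2 stood at 0.154 to 114 CPM (median 22.3). The primitive endoderm list summed to 4469 to 13736 CPM in those 5 cells and to 2422 to 8946 CPM in those 8. Against the naive pluripotency-like cells, the difference in mean log2(CPM + 1) was 4.92 for those 5 cells and 3.59 for those 8. The 2 primitive endoderm-like cells without Smarca2 detected, cells 4 and 33, had 237 and 392 CPM of Gata6, a primitive endoderm transcription factor, and 63.4 and 5.71 CPM of Pou5f1. The 5 naive pluripotency-like cells with Smarca2 detected had 34 to 135 Smarca2 reads (4.5 to 22.2 CPM) and at most 0.515 CPM of Gata6. Over the primitive endoderm list of 10 genes these 5 cells summed to 2.50 to 53.0 CPM, with 4 genes detected in any of them and Foxa2 at 0 reads. Over the naive list these 5 cells summed to 419 to 4688 CPM (median 1152). The 30 naive pluripotency-like cells without Smarca2 detected summed to 1417 to 5771 CPM (median 3111) over the naive list. The part of cell identity in the Smarca2 level was not tested.

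The promoters of the ATPase pair are shown because, of the paralog pairs within the 10 genes, this pair differed most in detection. RefSeq sequences on GRCm38.p6 run from 250 bases before to 50 bases after the gene start, and 8 of the 10 genes matched the table by symbol, Arid1a with 2 starts; Smarce1 and Arid2 did not. The Smarca2 promoter is chr19:26604910-26605209, plus strand, and the Smarca4 promoter is chr9:21615919-21616218, plus strand; each is written 5′ to 3′ with every CG dinucleotide in capitals.
Smarca2: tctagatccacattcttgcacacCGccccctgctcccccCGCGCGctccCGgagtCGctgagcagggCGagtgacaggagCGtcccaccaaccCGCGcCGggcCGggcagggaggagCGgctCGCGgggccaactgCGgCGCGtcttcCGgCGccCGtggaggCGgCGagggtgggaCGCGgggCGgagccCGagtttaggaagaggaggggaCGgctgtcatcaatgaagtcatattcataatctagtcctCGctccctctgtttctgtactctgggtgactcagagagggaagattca
Smarca4: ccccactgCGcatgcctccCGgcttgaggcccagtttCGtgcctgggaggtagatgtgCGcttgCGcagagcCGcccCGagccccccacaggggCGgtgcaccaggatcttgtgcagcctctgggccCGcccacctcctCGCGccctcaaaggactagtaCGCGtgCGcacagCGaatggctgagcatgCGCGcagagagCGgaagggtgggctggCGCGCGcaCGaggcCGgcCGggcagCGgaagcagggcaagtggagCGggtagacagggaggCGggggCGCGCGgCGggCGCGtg

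The Smarca2 window held 29 CG dinucleotides and 65.7% G or C bases, and the Smarca4 window 33 CG dinucleotides and 72.3%. The median of all 32851 promoters in the table was 7 CG dinucleotides, and 26.5% of them had at least 20. All 9 windows of the matched genes had at least 20. The letters AGATAA or TGATAA, searched on either strand because Gata6 is a marker here, were in 18.6% of all promoters and in neither of these windows. Both windows thus held far more CG than the median promoter, as did the other windows of the matched genes. Whether promoter sequence has a part in the detection of Smarca2 or Smarca4 was not tested.

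The scaffold genes Smarcc1 and Smarcc2 encode BAF155 and BAF170, which hold the complex together as a pair. Smarcc1 had 48.8, 134 and 270 CPM (lowest, median, highest) in primitive endoderm-like cells and 31.6, 236 and 616 CPM in naive pluripotency-like cells. Only 1 of the 13 primitive endoderm-like cells exceeded the median of the naive pluripotency-like cells, and the difference in mean log2(CPM + 1) was -0.72. Smarcc2 had 0, 0.305 and 158 CPM in primitive endoderm-like cells and 0, 0.644 and 82.3 CPM in naive pluripotency-like cells, and was detected in 5 of 13 and 16 of 35 of them. Most cells of either cluster lay near 0 with a few far above, and the difference was 0.31. Without cell 38 it was -0.15 and without cell 3 -0.0228, so single cells turned its sign. Smarcc2 detection depended on the minimum, with 29 cells at 1 read and 14 at 20 reads.

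The log2 read ratio of Smarcc1 to Smarcc2 had a median of 7.84 (SD 3.26, from -1.68 to 11.5) over the 48 cells, with a lane SD of 0.554. Smarcc2 had 0 reads in 17 cells, where the ratio is a lower bound, and the median was 8.09 with 0.5 reads added and 6.84 with 5 reads. Its median was 8.37 in primitive endoderm-like cells and 7.73 in naive pluripotency-like cells, so this pair did not show the separation of the ATPase pair. Smarcc1 exceeded Smarcc2 in 47 cells, and the exception was primitive endoderm-like cell 38, with 322 Smarcc1 and 1033 Smarcc2 reads. Pou5f1 was at 0.307 CPM in that cell. Among the 5 primitive endoderm-like cells without Pou5f1 detected, Smarcc2 stood at 0 to 158 CPM (median 11.5), and among the 8 with Pou5f1 at 0 to 12.0 CPM (median 0.0585). The Smarcc1 gene overlaps Dhx30 on the other strand in the annotation, with 2 to 2582 reads per cell for Dhx30, and the kit does not mark strand, so reads of the overlap cannot be told apart.

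**Figure D3:**
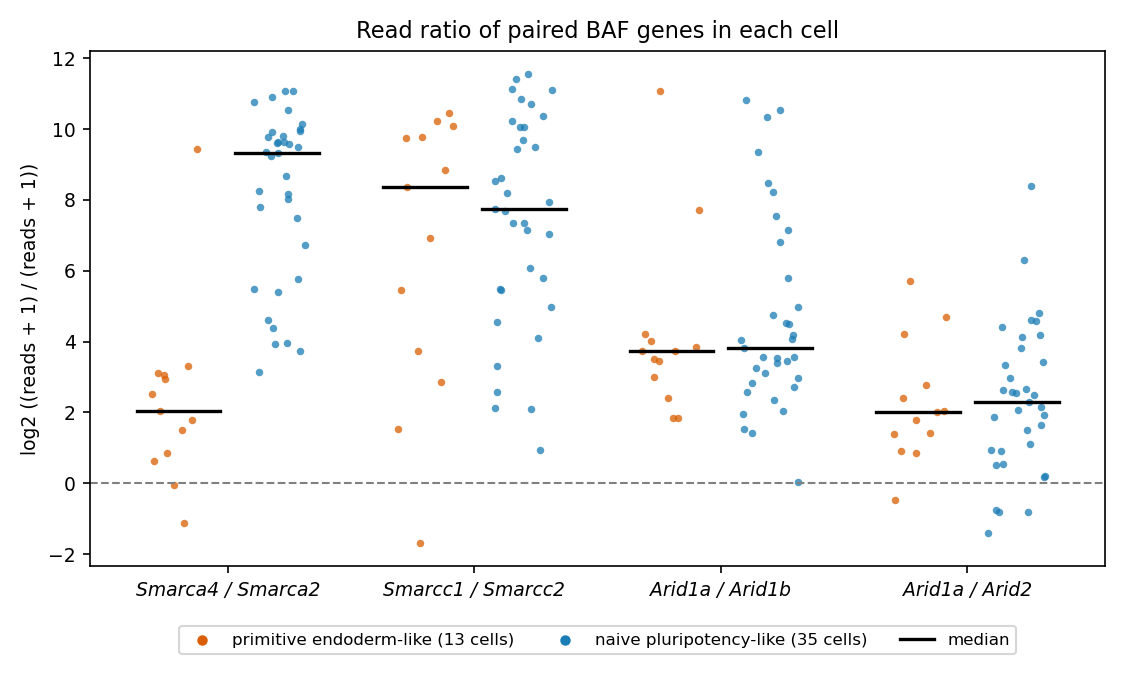
Log2 ratio of reads, with 1 read added to each gene, in each cell for 4 pairs; 13 primitive endoderm-like cells are left and 35 naive pluripotency-like cells right, bars are medians and the dashed line marks equal reads. The Smarca4 to Smarca2 ratio has medians of 2.03 and 9.32 in the clusters (27 naive pluripotency-like cells have 0 Smarca2 reads), and the other 3 pairs overlap.

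The core genes Smarcb1 and Smarce1 were read widely in both clusters. Smarcb1 had 11.6, 109 and 362 CPM (lowest, median, highest) in primitive endoderm-like cells and 32.1, 178 and 804 CPM in naive pluripotency-like cells, a difference in mean log2(CPM + 1) of -0.67. Smarce1 had 16.7, 96 and 407 CPM in primitive endoderm-like cells and 0.515, 136 and 526 CPM in naive pluripotency-like cells, a difference of -0.36. Leaving out 1 primitive endoderm-like cell at a time gave -0.82 to -0.41 for Smarcb1, with -0.41 without cell 32, and -0.56 (without cell 22) to -0.18 (without cell 38) for Smarce1. The ranges overlapped for both genes. Smarce1 was close to absent in naive pluripotency-like cells 7 and 26, with 4 reads each. A processed pseudogene of Smarce1 lies on chromosome 8 in GENCODE M21, and how the authors counted reads that match both is not given in the sources used here.

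Smarcd1 encodes BAF60A, the subunit that links the complex to transcription factors. It had 0, 8.12 and 69.4 CPM (lowest, median, highest) in primitive endoderm-like cells and 1.44, 25.1 and 203 CPM in naive pluripotency-like cells. The difference in mean log2(CPM + 1) was -1.26, the only one of the 10 genes at -1 or below. The value came to -0.65 when 10 CPM were added in place of 1, and to -0.996 without cell 3, which had 0 Smarcd1 reads. In the 5 primitive endoderm-like cells without Pou5f1 detected, Smarcd1 stood at 0 to 8.85 CPM (median 7.09), and in the 8 with Pou5f1 at 0.136 to 69.4 CPM (median 24.1), against a median of 25.1 CPM in naive pluripotency-like cells. Set against naive pluripotency-like cells the difference was -2.33 for those 5 cells and -0.58 for those 8. Its paralog Smarcd2 (BAF60B) was detected in 32 cells, 9 of 13 primitive endoderm-like and 23 of 35 naive pluripotency-like, and differed by -1.21. Smarcd3 (BAF60C), known from heart and muscle, was detected in 5 cells. Per kilobase, Smarcd2 stood at 2.11 CPM (quartiles 0.169 and 10.2), within the quartiles of Smarcd1, and Smarcd3 at 0.

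The ARID genes were led by Arid1a in most cells. Arid1a had 85.5, 198 and 441 CPM (lowest, median, highest) in primitive endoderm-like cells and 15.6, 237 and 367 CPM in naive pluripotency-like cells, a difference in mean log2(CPM + 1) of 0.07. Arid1b had 0, 16.0 and 52.4 CPM in primitive endoderm-like cells and 0, 15.5 and 307 CPM in naive pluripotency-like cells, a difference of 0.44. Arid2 had 2.31, 61.9 and 127 CPM in primitive endoderm-like cells and 0.605, 46.5 and 465 CPM in naive pluripotency-like cells, a difference of 0.10. The ranges of the clusters overlapped for all 3 genes. Single cells moved these values: Arid1a was at -0.0160 without cell 41 and 0.18 without cell 13, Arid1b at 0.29 without cell 25 and 0.77 without cell 22, and Arid2 at -0.0267 without cell 41 and 0.41 without cell 33. The signs of Arid1a and Arid2 thus turned with 1 cell.

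The balance of ARID reads was given per cell. The log2 read ratio of Arid1a to Arid1b had a median of 3.74 (SD 2.70, from 0.0336 to 11.1; lane SD 0.487) and that of Arid1a to Arid2 a median of 2.10 (SD 1.99, from -1.40 to 8.39; lane SD 0.346). Arid1b had 0 reads in 5 cells. Corrected for transcript length, the medians were 4.21 and 2.16. The Arid1a to Arid1b ratio had a median of 3.74 in primitive endoderm-like cells and 3.81 in naive pluripotency-like cells, and the Arid1a to Arid2 ratio 2.02 and 2.3. Arid1a exceeded Arid1b in 48 of 48 cells and Arid2 in 43, in reads and also per kilobase. The 5 cells with more Arid2 than Arid1a were primitive endoderm-like cell 13 and naive pluripotency-like cells 7, 26, 37 and 44. In cell 44 the reads were 654 for Arid1a and 1730 for Arid2.

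Read against all genes, 2 of the 10 BAF genes differed between the clusters by at least 1 log2 unit. Of the 11746 genes tested, 15.9% were higher and 16.5% lower in primitive endoderm-like cells by at least 1 log2 unit; of the 10 BAF genes, 1 was higher (Smarca2) and 1 lower (Smarcd1). Their median difference was 0.0851, beside -0.145 for all genes tested. Summed over the 10 genes, a cell had 407 to 1531 CPM (median 886) in the primitive endoderm-like cluster and 679 to 1959 CPM (median 1085) in the naive pluripotency-like cluster. Clustering again without any BAF gene placed 0 cells differently. Since 0 of the 10 genes were among the clustering genes, this took out only other BAF genes, such as Ss18.

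Other BAF subunits were taken from a list of 21 genes, of which 20 had a row and 14 averaged 10 or more reads a cell. By at least 1 log2 unit in primitive endoderm-like cells, 0 of the 14 were higher (15.9% of all genes tested) and 5 lower (16.5%). The 5 were Ss18 (-2.86), Actl6a (-1.83), Bcl7a (-1.29), Smarcd2 (-1.21) and Dpf1 (-1.11), as differences in mean log2(CPM + 1), and the median of the 14 was -0.0560. Ss18, a dedicated BAF subunit whose human gene is fused in synovial sarcoma, had 0, 17.6 and 310 CPM (lowest, median, highest) in primitive endoderm-like cells and 0.371, 121 and 401 CPM in naive pluripotency-like cells. It was detected in 9 of 13 and 34 of 35 of them and was itself among the clustering genes. Actl6a, the actin-related subunit BAF53A of dividing cells, had 14.7, 122 and 395 CPM in primitive endoderm-like cells and 43.0, 352 and 855 CPM in naive pluripotency-like cells. In the annotation Actl6a overlaps Mrpl47 on the other strand, and the kit does not mark strand, so reads of that overlap cannot be told apart. With a pseudocount of 10 CPM, Smarcd2 (-0.84), Bcl7a (-0.47) and Dpf1 (-0.33) no longer reached 1 log2 unit. Dpf1 was detected in 1 of 13 primitive endoderm-like cells and 17 of 35 naive pluripotency-like cells. Actl6b, the neuronal counterpart of Actl6a, and Dpf3 and Bcl11b were detected in no cell; Dpf3 had 0 reads, Actl6b at most 1 read and Bcl11b at most 3 reads in any cell.

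ATPases of other remodellers served as a second list, 20 genes of which 19 had a row and were tested. Here 0 were higher (15.9% of all genes tested) and 5 lower (16.5%) in primitive endoderm-like cells by at least 1 log2 unit. The 5 were Chd9 (-2.78), Shprh (-1.61), Hltf (-1.50), Smarcad1 (-1.45) and Ino80 (-1.08). The median of the list was -0.374. Chd9, a chromodomain remodeller, had 0.139, 16.4 and 215 CPM (lowest, median, highest) in primitive endoderm-like cells and 0, 118 and 395 CPM in naive pluripotency-like cells, and it was among the clustering genes. Of the ATPase genes of the BAF and remodeller lists, only Smarca2 (4.10) stood higher by at least 1 log2 unit in primitive endoderm-like cells. Smarca1 (0.93) and Chd1 (0.81) came nearest below that cut.

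Whether any BAF gene varied between cells beyond genes of like mean was tested next. Of 11746 genes, 239 (2.03%) were called (scran's modelGeneVar, one-sided, Benjamini-Hochberg adjusted over all genes tested), and 0 of the 10 BAF genes were, with adjusted p from 0.906 to 0.932. None had an unadjusted p under 0.05, and scran's test of the squared coefficient of variation, which called 6.22% of all genes, called 0 of them. Smarca2 had the most variance above the trend, 5.86 against 4.75 (log2 units squared), and Smarce1 came next at 2.60 against 2.10. Smarcd1 lay farthest below, at 3.37 against 5.65, and Arid1b at 4.00 against 6.04. Arid1a had the lowest variance, 0.637 against 1.06, and Smarcc1 had 0.958 against 1.22. In all, 7 of the 10 lay below the trend and their median excess was -0.344. The same modelGeneVar test called 2 of the 10 primitive endoderm markers and 5 of the 10 naive markers, and Gata6 missed the threshold (adjusted p = 0.0695). A gene that misses the threshold is thus not shown to vary as little as others.

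The other BAF genes gave 0 calls among 14, with Actl6a (p = 0.013, adjusted p = 0.373) and Ss18 (p = 0.028, adjusted p = 0.660) at an unadjusted p under 0.05 by the same scran test. The other remodeller ATPases gave 0 calls among 19, with Chd9 (adjusted p = 0.167) and Atrx (adjusted p = 0.309) at an unadjusted p under 0.05. Within the 35 naive pluripotency-like cells, 200 of 11454 genes (1.75%) were called by that test, and 0 of the 10 BAF genes.

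**Figure D4:**
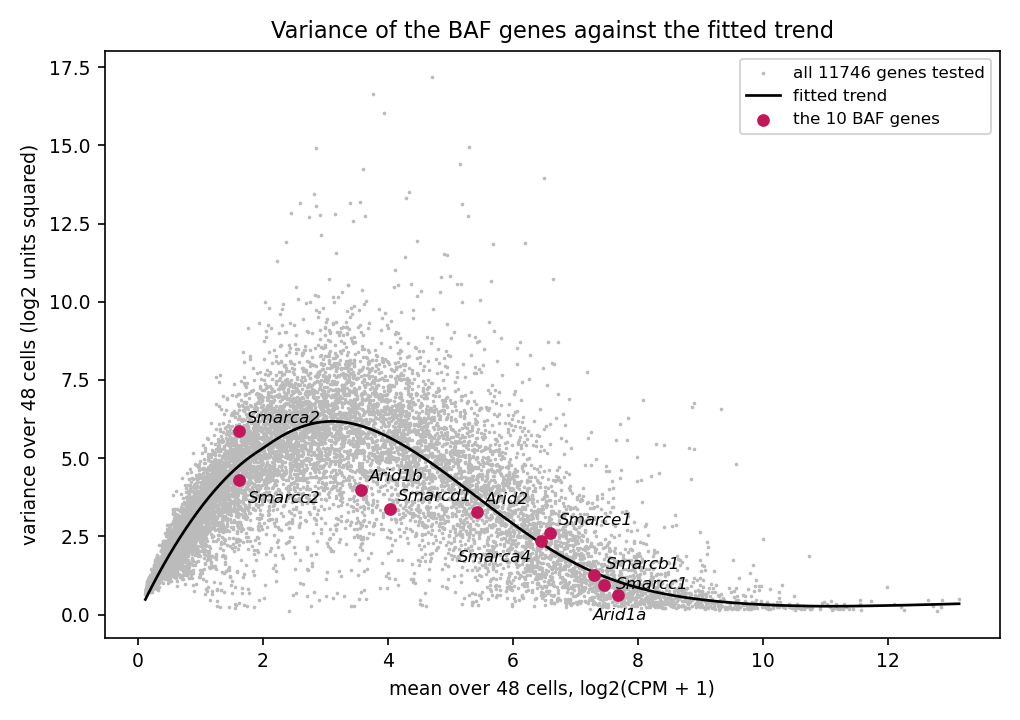
Variance over 48 cells (log2 units squared) against mean log2(CPM + 1) for the 11746 genes tested (grey), with the fitted trend (line) and the 10 BAF genes (coloured). Smarca2, Smarce1 and Smarca4 lie above the line and the other 7 below it, and 0 of the 10 passed the adjusted threshold.

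Whether the BAF genes moved together from cell to cell was described within the 35 naive pluripotency-like cells, for which the labels name no separate capture run or culture. The mean Spearman correlation of the 45 pairs of the 10 genes was -0.0204, beside 0.00126 over all pairs of genes tested. Of the 45 pairs, 2 (4.44%) had a rho of at least 0.3, against 4.67% of all pairs, and 0 had a rho of -0.3 or less, against 4.28%. The 2 were Smarcd1 with Arid1a (rho = 0.37) and Smarce1 with Arid1b (rho = 0.34). The lowest were Smarca4 with Arid1a (rho = -0.299) and Smarca4 with Smarce1 (rho = -0.293). The share of pairs at or above 0.3 was thus close to that of genes in general. With the number of genes detected per cell, Smarcb1 had a rho of -0.54 and Smarca4 of -0.38. After each gene was regressed on that number, the mean correlation of the 45 pairs was -0.0335.

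**Figure D5:**
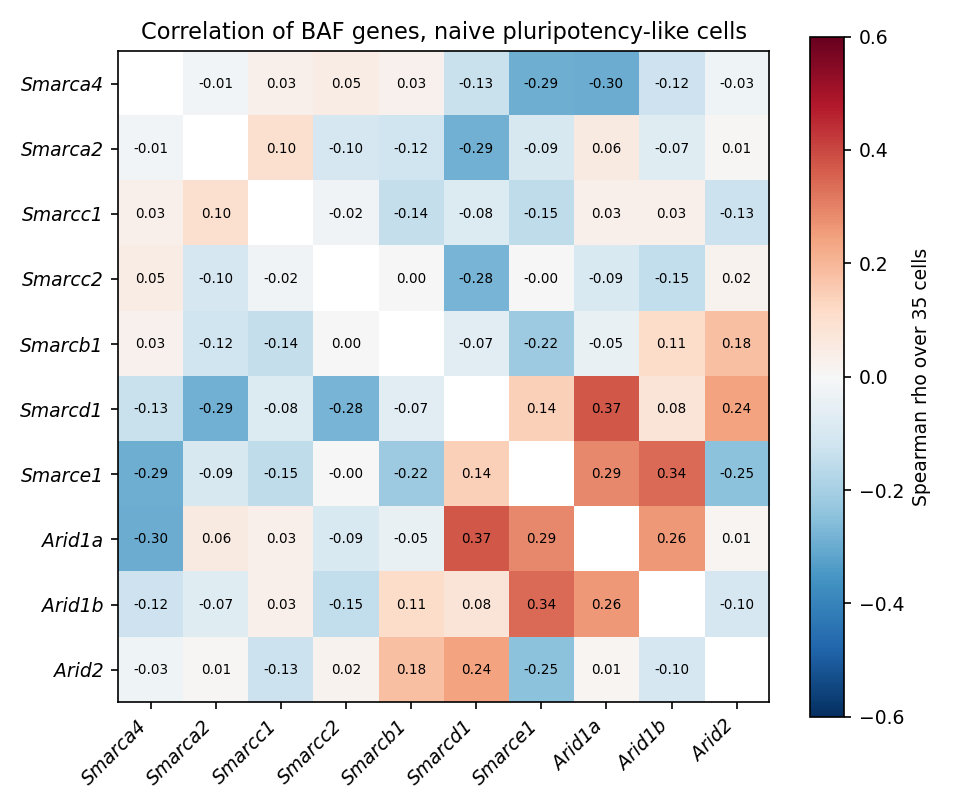
Spearman rho of log2(CPM + 1) for each pair of the 10 BAF genes over 35 naive pluripotency-like cells, with red for positive and blue for negative values. No block of genes stands out; the highest value is 0.37 (Smarcd1 with Arid1a) and the lowest -0.299 (Smarca4 with Arid1a).

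Genes whose levels were most like each BAF gene over the 35 cells were ranked by Spearman rho among 11453 genes, as a description of these cells. The highest rho among so many genes is large by selection, and no shared function was tested. Smarca4 was most like BC048355 (rho = 0.62), Park2 and Lman2, and Smarca2 most like Gm6907 (rho = 0.71), Ttc39a and AV039307; Smarca2 was at 0 reads in 27 of these cells, so its ranks hold many ties. Smarcc1 was nearest to Mbd4 (rho = 0.62), Elovl2 and Plxdc2, and Smarcc2 to Zfp532 (rho = 0.70), Arhgef2 and Hagh. Among the nearest to Smarcb1 were Pja2 (rho = 0.65) and the respiratory chain gene Cox4i1, and Smarcd1 was nearest to Ccdc115 (rho = 0.60), Edc3 and 6330407J23Rik. Smarce1 was nearest to Brms1 (rho = 0.69), Suz12 (rho = 0.66), a subunit of the Polycomb complex PRC2, and Rmnd5b. For the ARID genes the nearest were Nespas (rho = 0.68), Rexo1 and Efna5 for Arid1a, Nanp (rho = 0.66), Elavl1 and Ppp1r10 for Arid1b, and Kif20a (rho = 0.64), Rabggtb and Pgm3 for Arid2. No BAF gene appeared in the nearest 3 of another.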

How the data were processed

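Whole-number read counts per gene were deposited by the authors as 1 table without normalization, with a column for each of 96 libraries. The build mm9 and the tools featureCounts, Subread 1.4.5-p1 and STAR 2.3.1z12 are given per the submitters' processing notes, without their roles; the annotation, the strand setting and the handling of reads that match several places are not given in the sources used here. Every column matched 1 library by its label.

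Lanes were summed per cell. TMMwsp factors from edgeR 4.0.16 in R 4.3.3 scaled the counts, which were taken as log2(CPM + 1). Variance was tested with modelGeneVar of scran 1.30.0 over genes averaging 10 or more reads a cell. Ward clustering used 5 principal components of 500 genes, and clusters were named from marker lists. Doublets were not called, and all 48 cells were kept. Lengths, overlaps and pseudogenes came from GENCODE M21 on GRCm38, used for names and lengths only, from 1 principal coding transcript per gene. Detection, ratios and correlations were computed with numpy 2.4.6, pandas 2.3.3 and scipy 1.17.1. The variance test, the difference between clusters and the lane test were tested on simulated data.

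The named genes are the 10 BAF genes; other BAF genes that were called variable, differed by 1 log2 unit, were detected in no cell or are SMARCD paralogs; remodeller ATPases that were called or differed by 1 log2 unit, to which Atrx was added after its value was seen; and the 3 nearest genes of each BAF gene, of which 1 is not reported here. The members and lists were chosen with earlier results of these data known. Alternatives were other scaling (scran, library size, DESeq2 1.42.0 poscounts), pseudocounts, count minimums, thinning, single lanes, the squared coefficient of variation and subsets of cells.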

Additional observations from a re-analysis of the deposited data

How the results depend on the processing

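The labels name no culture or chip per cell, so every statement is limited to these cells, and genes near the count minimum are limited by depth. No paired analysis was possible because the study has 1 group. The count of variable genes was 159 with a pseudocount of 10 CPM and 731 by the squared coefficient of variation, against 239; that coefficient called 1 other BAF gene, Actb (adjusted p = 0.0371), where 6.22% of all genes were called. The lowest adjusted p of any of the 10 BAF genes over 12 alternatives was 0.592, for Arid2.

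The median log2 ratio of Smarca4 to Smarca2 was 2.03 in the smaller cluster alone. Smarcc2 was detected in 29 cells at a minimum of 1 read and 14 at 20 reads, Smarce1 in 48 at 1 read and Arid2 in 43 at 20 reads. The Smarcd1 difference between clusters was -0.65 with a pseudocount of 10 CPM and -0.58 for primitive endoderm-like cells with Pou5f1. Leaving out each primitive endoderm-like cell in turn gave -1.51 to -0.996 for Smarcd1 and 3.90 to 4.46 for Smarca2. It turned the sign of Smarcc2, Arid1a and Arid2, none of which reached 1 log2 unit. Of the genes not past 1 log2 unit, Smarcc1 reached -1.21 and Smarcc2 1.90 in the cells without Pou5f1. The cause of these shifts was not tested. The mean pair correlation of the 10 genes stayed between -0.0335 (genes detected regressed out) and -0.0204. Scaling moved the median difference of all genes between -0.169 (library size) and -0.111 (scran), against -0.145. The splits by Pou5f1, the smaller cluster alone, thinned cells for the differences and the omission of single cells were chosen after seeing the data.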
